A study of Mus musculus with 48 samples.

Results

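Transcripts of 10 circadian clock genes were measured by digital spatial profiling in 4 brain regions of mice that had been flown in space or kept on the ground. The genes are Per1, Per2, Per3, Cry1, Nr1d1, Nr1d2, Dbp, Nfil3, Bhlhe40 and Arntl, the listed clock genes with a row in each of the 4 regional tables, and they are 10 of the 15782 genes in those tables. In this assay, probes that carry a DNA tag bind their transcripts in a section, and the tags cut loose by UV light within an area of illumination (AOI) are sequenced and counted. The AOIs lay in the hippocampal CA field (CA), the dentate gyrus (DG), the frontal cortex (FCT) and a further cortical area (CT).

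All mice were male C57BL/6, aged 10 weeks at launch, and lived in flight habitat cages at 26 to 28 °C under a light and dark cycle of 12 h each. Flight (FLT) mice spent 35 days on the space station and reached the laboratory within 20 h of splashdown, while ground control (GC) mice went through the same protocol 3 days later. Mice of both kinds received either saline (SAL) or BuOE, a manganese porphyrin that mimics superoxide dismutase. BuOE was injected at 1 mg/kg in 0.2 mL, 7 days before launch and then weekly. The volume and schedule of saline are not stated separately in the sources used here. The 4 groups, GC-SAL and FLT-SAL under saline and GC-BuOE and FLT-BuOE under BuOE, held 3 mice each, and every mouse gave 1 AOI per region, which made 48 AOIs from 12 mice. Sections from the 3 mice of a group shared a slide, so slide and group cannot be told apart. The p-values of group comparisons rest on the spread between mice, pooled over the 4 groups and drawn toward that of all genes. Those of comparisons between regions rest on the spread between AOIs within mice. The time of day at which the brains were taken is not given in the sources used here, and its part in any difference was not tested.

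In the mammalian clock, the transcription factor made from Arntl (BMAL1) and its partner CLOCK bind E-box sequences and switch on the Per genes, Nr1d1 and Nr1d2, Dbp and Bhlhe40. PER and CRY proteins then block that activator, while the REV-ERB receptors made from Nr1d1 and Nr1d2 repress Arntl, Cry1 and Nfil3 through ROR elements, so that these genes peak at other times of day than the E-box genes. DBP activates and NFIL3 represses genes that hold a D-box, and clocks of this kind run in most tissues, the cortex and hippocampus included. The 7 genes Per1, Per2, Per3, Nr1d1, Nr1d2, Dbp and Bhlhe40 are called the E-box arm here, and Arntl, Cry1 and Nfil3 are set against it.

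Values are Q3-normalized counts, in which each AOI is scaled to a common upper quartile, and the value of a mouse is the geometric mean of its 4 regions. Each gene was read by a single probe, so levels are compared between mice and regions and not between genes. Total counts per AOI ran from 322629 to 1579380 (median 652040), and the FLT-SAL slide was the deepest (median 991426). Marker genes matched the labels DG and CA. The summed level of 3 dentate granule cell markers was 203 to 312 in DG and at most 108 elsewhere. That of 4 CA1 pyramidal markers was 239 to 419 in CA and at most 141 elsewhere. For 5 cortical projection neuron markers it was 214 to 382 in FCT and 230 to 448 in CT, so they did not tell these apart. It was 163 to 224 in CA, which reaches into the range of FCT, and 160 to 198 in DG. An AOI holds many cells, so fewer expressing cells and less RNA per cell cannot be told apart. Per1, Per2, Per3 and Nr1d2 lay above 1.5 times the negative-control probes in 48 of 48 AOIs, Nr1d1 and Bhlhe40 in 47, Dbp in 46, Arntl in 45, Cry1 in 42 and Nfil3 in 38. Nfil3 was the faintest, with 10 to 60 counts in an AOI, and its CA values had a median of 1.5 times the negative-control probes.

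The upstream sequences of 7 of these genes are shown because clock factors act through short elements of the kinds named above. They are RefSeq sequences on GRCm38.p6, read 5′ to 3′ on the strand of the gene, and all but that of Arntl are the 250 bases before a start site. Capitals mark matches, on either strand, to 4 motifs: the E-box CACGTG, the E'-box CACGTT, the D-box (TTATGTAA or TTACGTAA) and the ROR element (TAGGTCA or TGGGTCA). Nr1d1 (chr11:98775378-98775627, minus strand) holds an E'-box, Per1 (chr11:69098699-69098948, plus strand) an E-box, Per3 (chr4:151044666-151044915, minus strand) a pair of D-boxes, Cry1 (chr10:85185055-85185304, minus strand) an E'-box and an E-box, and Nfil3 (chr13:52981040-52981289, minus strand) a ROR element. Dbp (chr7:45704997-45705246, plus strand) holds none of them. The stretch of Arntl (chr7:113207531-113207557, plus strand) lies just past its start site and holds a ROR element. Per1 and Arntl each have another window in the table, and these held no match. The E-box and E'-box matches did not divide the genes by arm, since Cry1 holds both kinds and Dbp none. The ROR element matches were found only in Nfil3 and Arntl, and not in Cry1.
Nr1d1: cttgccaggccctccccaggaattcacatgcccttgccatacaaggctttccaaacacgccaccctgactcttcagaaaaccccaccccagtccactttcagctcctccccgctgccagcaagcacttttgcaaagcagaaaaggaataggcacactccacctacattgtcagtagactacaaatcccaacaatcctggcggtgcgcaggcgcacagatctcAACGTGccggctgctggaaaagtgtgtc
Dbp: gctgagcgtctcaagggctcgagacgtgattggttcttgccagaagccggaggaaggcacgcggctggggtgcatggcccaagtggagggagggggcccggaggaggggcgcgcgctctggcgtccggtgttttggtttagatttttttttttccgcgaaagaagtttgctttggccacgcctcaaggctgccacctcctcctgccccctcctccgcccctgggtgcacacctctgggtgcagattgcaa
Per1: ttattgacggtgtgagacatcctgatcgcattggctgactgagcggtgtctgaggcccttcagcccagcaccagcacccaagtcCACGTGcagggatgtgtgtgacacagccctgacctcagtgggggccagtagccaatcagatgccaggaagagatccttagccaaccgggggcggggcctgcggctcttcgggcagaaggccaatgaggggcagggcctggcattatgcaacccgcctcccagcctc
Per3: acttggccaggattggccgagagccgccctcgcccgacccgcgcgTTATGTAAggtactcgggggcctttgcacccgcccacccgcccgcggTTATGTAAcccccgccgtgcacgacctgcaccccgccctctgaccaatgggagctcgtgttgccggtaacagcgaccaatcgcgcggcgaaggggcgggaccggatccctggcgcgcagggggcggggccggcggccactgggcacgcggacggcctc
Cry1: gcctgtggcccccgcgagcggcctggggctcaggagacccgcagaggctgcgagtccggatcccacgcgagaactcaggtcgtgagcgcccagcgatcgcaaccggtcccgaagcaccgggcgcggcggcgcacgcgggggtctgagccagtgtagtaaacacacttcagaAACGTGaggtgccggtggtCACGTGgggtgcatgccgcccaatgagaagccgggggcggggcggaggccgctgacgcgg
Nfil3: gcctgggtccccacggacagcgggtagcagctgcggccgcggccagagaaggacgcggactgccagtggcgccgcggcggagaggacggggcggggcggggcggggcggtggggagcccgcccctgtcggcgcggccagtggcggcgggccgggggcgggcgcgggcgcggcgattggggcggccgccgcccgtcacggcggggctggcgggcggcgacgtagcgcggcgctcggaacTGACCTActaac
Arntl: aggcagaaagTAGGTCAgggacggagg
Over 32817 windows of all genes, from 250 bases before to 50 bases after a start site, 7.15% held the E-box, 4.69% the E'-box, 1.05% the D-box and 6.46% the ROR element. A match in so short a window is a description only. RefSeq windows were matched for 8 of the 10 genes, and Nr1d2 held none of the motifs. Per2 and Bhlhe40 had no window in the table.

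Flight mice had more Nr1d1 and Dbp transcript than ground mice under both treatments, and Nfil3 was lower in every flight mouse than in every ground mouse when the 4 regions were averaged. This separation was complete only with CA included: over the other 3 regions the 6 flight and the 6 ground mice overlapped for all 3 genes. For Dbp that overlap was narrow, with the lowest flight mouse at 45.6 and the highest ground mouse at 45.8. Dbp in BuOE mice still passed the test described below when CA was left out. The other 7 genes did not separate flight from ground even with CA. Groups were compared with limma on the log2 mean of the 4 regions in each mouse, with p-values adjusted over all 15782 genes and a call at an adjusted p below 0.05.

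**Figure D1:**
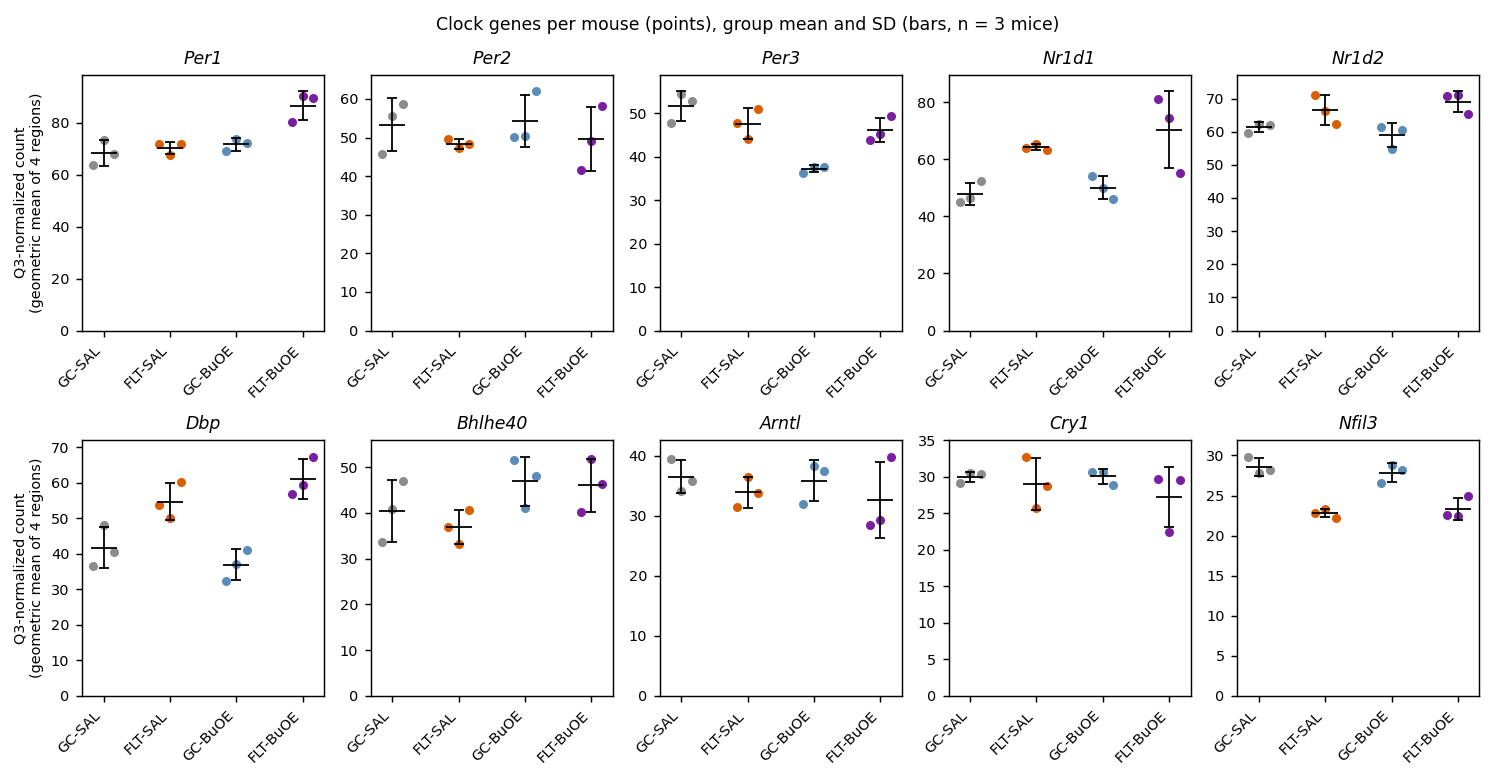
Q3-normalized counts of the 10 clock genes (vertical axes, from 0) in the 4 groups, each point 1 mouse as the geometric mean of its 4 regions and bars the group mean and SD (n = 3 mice). The FLT-SAL and FLT-BuOE points lie above the ground points for Nr1d1 and Dbp and below them for Nfil3, while Per2, Bhlhe40, Arntl and Cry1 overlap.

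Nr1d1 (chr11:98767932-98775333, GRCm38) encodes REV-ERBα, the receptor that represses Arntl. Its level was 45.0, 46.3 and 52.4 in the GC-SAL mice and 64.1, 65.4 and 63.4 in the FLT-SAL mice. In the BuOE groups it was 54.1, 49.9 and 46.2 on the ground and 81.3, 74.5 and 55.3 in flight. All flight mice stood above all ground mice, and the FLT-SAL mice were much closer together than the FLT-BuOE mice. Nr1d1 rose with flight by 0.42 on the log2 scale (SE 0.108, 95% confidence interval 0.20 to 0.64, adjusted p = 0.0384) in saline mice. In BuOE mice it rose by 0.47 (SE 0.108, interval 0.25 to 0.68, adjusted p = 0.0252). Each call depended on single mice: the saline call was lost when any saline mouse, flight or ground, or GC-BuOE mouse 2 was left out, and the BuOE call without GC-BuOE mouse 2 or 3 or FLT-BuOE mouse 1 or 2. Without CA the differences were 0.31 and 0.37 (adjusted p = 0.418 and 0.266), and neither was called. The direction held in every alternative.

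Dbp (chr7:45705088-45710203) encodes a D-box activator and is among the most strongly cycling clock outputs. Its level was 36.5, 47.99 and 40.6 in GC-SAL and 53.6, 50.2 and 60.2 in FLT-SAL. With BuOE it was 32.3, 37.2 and 41.1 on the ground and 56.7, 59.2 and 67.3 in flight. Here too the lowest flight mouse lay above the highest ground mouse of its treatment. Dbp rose with flight in BuOE mice by 0.72 (SE 0.109, interval 0.50 to 0.93, adjusted p = 7.78e-05), a fold of 1.64, and this call held under all 25 alternatives. In saline mice the difference was 0.39 (SE 0.109, interval 0.17 to 0.61) with an adjusted p of 0.0761. In limma, the difference between the BuOE and the saline effect was 0.33 (SE 0.154, adjusted p = 0.771), so the flight effect on Dbp was not shown to differ between treatments. In the annotation the 3′ end of Dbp overlaps Sphk2 and that of Nr1d1 overlaps Thra, each on the opposite strand, and the positions of the probes were not used here.

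Nfil3 (chr13:52967209-52981073) encodes the repressor that competes with DBP for D-boxes. Its level was 29.9, 27.8 and 28.1 in GC-SAL and 22.8, 23.3 and 22.2 in FLT-SAL. In the BuOE groups it was 26.6, 28.8 and 28.2 on the ground and 22.6, 22.5 and 24.9 in flight. The 6 flight mice lay between 22.2 and 24.9, below all 6 ground mice. The differences were −0.32 in saline (SE 0.115, adjusted p = 0.261) and −0.25 in BuOE mice (SE 0.115, adjusted p = 0.501), and neither passed the test. Without CA they shrank to −0.17 (adjusted p = 0.852) and −0.022 (adjusted p = 0.979).

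Counted over the 10 genes, 1 was called in FLT-SAL against GC-SAL (Nr1d1), where 0.843% of all genes were called, and 3 did not overlap between the groups, against 14.8% of all genes. In FLT-BuOE against GC-BuOE, 2 were called (Nr1d1 and Dbp), against 0.336% of all genes, and 6 did not overlap, against 12.9%. At an unadjusted p below 0.05 there were 3 of the 10 in saline (8.79% of all genes) and 6 in BuOE mice (9.31%). The median log2 difference of the 10 genes was −0.078 in saline and 0.098 in BuOE mice, beside 0.011 and −0.020 over all genes. On recovered whole counts, edgeR and DESeq2 each called 0 of the 10 genes in the saline contrast and 1, Dbp, in the BuOE contrast.

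The saline and the BuOE flight contrasts share no mice, and their mean over 6 flight and 6 ground mice was taken after the data had been seen. Dbp rose by 0.55 in it (SE 0.0773, adjusted p = 2.63e-06) and Nr1d1 by 0.44 (SE 0.0763, adjusted p = 1.45e-04), and both were called in all 24 alternatives. Without CA, Dbp was at 0.46 (adjusted p = 4.23e-04) and Nr1d1 at 0.34 (adjusted p = 0.0234). Nfil3 differed by −0.28 (SE 0.0814, adjusted p = 0.0639), and by −0.095 without CA (adjusted p = 0.819). These were 2 of the 10 genes called, against 1.43% of all genes, and 5 were at an unadjusted p below 0.05, against 11.1%. The 3 genes whose 6 flight mice did not overlap with the 6 ground mice were Nr1d1, Dbp and Nfil3, against 1.09% of all genes.

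**Figure D2:**
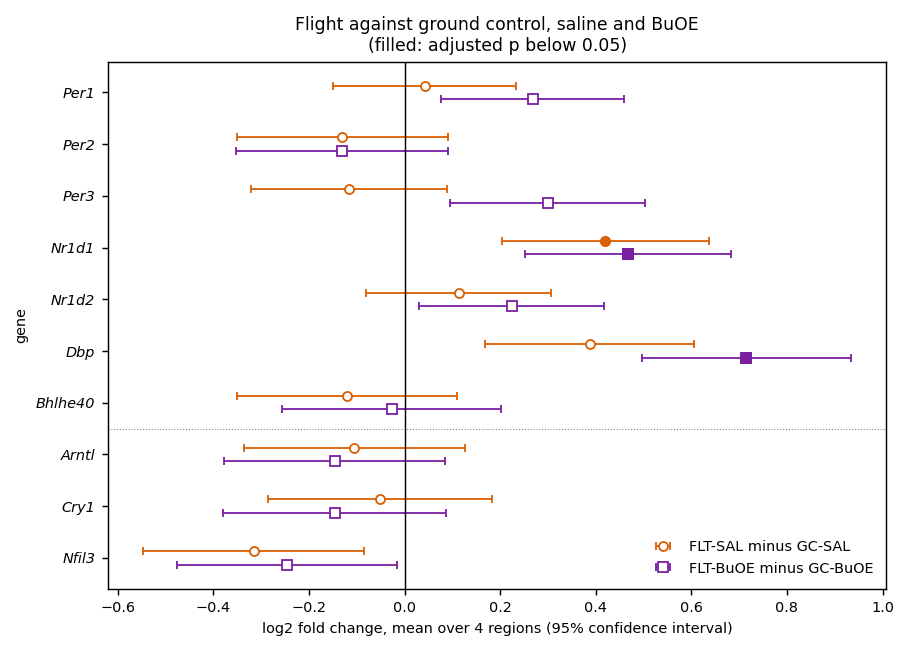
Log2 fold change of each clock gene between flight and ground mice (horizontal axis, mean over 4 regions, with 95% confidence interval) in saline mice (circles) and BuOE mice (squares), filled where the adjusted p was below 0.05. The filled points are Nr1d1 in both contrasts (0.42 and 0.47) and Dbp in BuOE mice (0.72), the intervals of Nfil3 lie below 0, and those of Per2, Bhlhe40, Arntl and Cry1 cross 0 in both contrasts.

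Nr1d2 encodes REV-ERBβ, the partner receptor of Nr1d1. Its level was 59.6, 62.4 and 62.0 in GC-SAL against 71.1, 66.1 and 62.3 in FLT-SAL, and 61.5, 54.8 and 60.6 in GC-BuOE against 70.7, 71.0 and 65.4 in FLT-BuOE. The BuOE groups did not overlap, whereas a GC-SAL mouse exceeded the lowest FLT-SAL mouse. The differences were 0.11 (SE 0.0970, adjusted p = 0.832) in saline and 0.22 (SE 0.0970, adjusted p = 0.458) in BuOE mice, smaller than those of Nr1d1.

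The Per genes, which encode the repressor subunits, did not move together. Per1 was 63.7, 73.6 and 68.1 in GC-SAL and 71.8, 67.6 and 71.8 in FLT-SAL, a difference of 0.042 (SE 0.0958). With BuOE it was 69.1, 73.9 and 72.1 on the ground and 80.2, 90.3 and 89.5 in flight, a difference of 0.27 (SE 0.0958, adjusted p = 0.309). Per1 was thus highest in the 3 FLT-BuOE mice, none of which overlapped with any other group. Against FLT-SAL, the same FLT-BuOE mice were higher by 0.29 (SE 0.0958, adjusted p = 0.290), in a contrast that shares its flight mice with those above.

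Per3 had its lowest values in GC-BuOE. It was 47.9, 54.5 and 52.8 in GC-SAL, 47.9, 44.1 and 51.1 in FLT-SAL, 36.4, 37.8 and 37.7 in GC-BuOE and 43.9, 45.3 and 49.4 in FLT-BuOE. The 3 GC-BuOE mice lay below all 9 others. Per3 was lower in GC-BuOE than in GC-SAL by 0.46 on the log2 scale (log2 difference −0.46, SE 0.102), which did not pass limma's test over all genes (adjusted p = 0.177). FLT-BuOE exceeded GC-BuOE by 0.30 (SE 0.102, adjusted p = 0.270), while FLT-SAL differed from GC-SAL by −0.12 (SE 0.102), and the difference between these effects was 0.42 (SE 0.144, adjusted p = 0.555).

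Per2 ranged from 45.6 to 58.8 in GC-SAL, from 47.2 to 49.8 in FLT-SAL, from 50.2 to 62.0 in GC-BuOE and from 41.6 to 58.2 in FLT-BuOE. The groups overlapped, and the flight differences were −0.13 in both treatments (SE 0.11). Bhlhe40 encodes DEC1, a repressor that competes for E-boxes and that also answers to neuronal activity and hypoxia. It was 33.5, 40.8 and 46.9 in GC-SAL, 37.0, 33.1 and 40.5 in FLT-SAL, 51.6, 41.1 and 48.1 in GC-BuOE and 40.2, 51.7 and 46.3 in FLT-BuOE. Its flight differences were −0.12 and −0.027 (SE 0.115), and FLT-BuOE exceeded FLT-SAL by 0.31 (adjusted p = 0.426).

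Arntl and Cry1, the targets of the REV-ERB receptors, varied within groups as much as between them. Arntl was 39.6, 34.2 and 35.8 in GC-SAL, 31.4, 36.5 and 33.8 in FLT-SAL, 31.9, 38.3 and 37.5 in GC-BuOE and 28.6, 29.4 and 39.9 in FLT-BuOE. FLT-BuOE held both the lowest and the highest mice. Its flight differences were −0.10 (SE 0.115, interval −0.34 to 0.13) and −0.15 (SE 0.115, interval −0.38 to 0.085). Cry1, a repressor that pairs with PER proteins, was 28.9 to 30.7 in the 6 ground mice, 25.7 to 32.8 in FLT-SAL and 22.5 to 29.7 in FLT-BuOE, with flight differences of −0.051 (SE 0.117) and −0.15 (SE 0.117).

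Over the mean of the 4 regions, BuOE itself moved none of the 10 genes past the threshold. In FLT-BuOE against FLT-SAL, 0 of the 10 were called by limma, against 0.120% of all genes, with 2 at an unadjusted p below 0.05 (Per1 and Bhlhe40, against 7.90% of all genes) and 0 by edgeR or DESeq2. In GC-BuOE against GC-SAL, 0 were called, against 0.00% of all genes, with 1 at an unadjusted p below 0.05 (Per3, against 4.41%) and 0 by edgeR or DESeq2. The test of whether the flight effect differed between treatments called 0 of the 10 genes, against 0.00% of all genes, with 2 at an unadjusted p below 0.05 (Per3 and Dbp, against 6.27%) and 0 by edgeR or DESeq2.

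Within single regions, the flight differences of Nr1d1, Dbp and Nfil3 were largest in CA. Dbp in CA was 27.4, 26.7 and 45.4 in GC-BuOE and 66.3, 62.3 and 90.5 in FLT-BuOE. It rose by 1.14 (SE 0.219, adjusted p = 0.0110), a fold of 2.20, and was the only call within a region among the 10 genes in contrasts of single groups. Calls within a region also required a change of more than 1.5-fold. The share of all genes called in this contrast was 0.0444% in CA, 0.108% in DG, 0.0127% in CT and 0.0190% in FCT. The call was lost without GC-BuOE mouse 1 or 2 or FLT-BuOE mouse 1 or 3 and with DESeq2 (adjusted p = 0.435). The other differences of Dbp in that contrast were 0.53 in DG, 0.48 in FCT and 0.71 in CT (adjusted p = 0.378, 0.543 and 0.239), so the flight mean of Dbp lay above the ground mean in each region. In saline mice Dbp differed by 0.52 in CA, 0.46 in FCT, 0.40 in DG and 0.17 in CT. In those 4 saline contrasts limma called 0 of the 10 genes, against 0.139% of all genes in CA, 0.266% in DG, 0.0887% in CT and 0.0507% in FCT, and so did edgeR and DESeq2. At an unadjusted p below 0.05 there were 4 of the 10 in CA (6.73% of all genes), 4 in DG (7.41%), 0 in CT (5.27%) and 2 in FCT (5.66%).

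Nr1d1 in CA was 36.9, 24.8 and 50.4 in GC-SAL against 61.2, 58.5 and 63.1 in FLT-SAL. With BuOE it was 35.8, 36.0 and 35.7 on the ground against 71.8, 56.3 and 55.7 in flight. Flight mice were above ground mice in both treatments, and the differences were 0.75 and 0.75 (SE 0.212, adjusted p = 0.158 and 0.251). In DG the differences were 0.58 in saline and 0.39 in BuOE mice. In CT, Nr1d1 differed by 0.042 in saline and by 0.60 in BuOE mice (adjusted p = 0.300), with 119, 106 and 77.0 in FLT-BuOE over 61.8, 68.7 and 64.7 in GC-BuOE. In FCT, a single FLT-BuOE mouse at 40.0 lay below every ground mouse while the other two were at 92.9 and 84.5, and the differences were 0.31 in saline and 0.14 in BuOE mice.

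Nfil3 in CA was 30.8, 40.0 and 37.1 in GC-SAL against 17.7, 29.8 and 16.9 in FLT-SAL, and 27.4, 46.7 and 38.9 in GC-BuOE against 16.6, 23.7 and 17.4 in FLT-BuOE. Groups were apart in both treatments, with differences of −0.76 and −0.92 (SE 0.268, adjusted p = 0.387 and 0.281). In DG and FCT the differences ran from −0.23 to 0.22, and in CT they were −0.16 and −0.37. In CA, Nfil3 was at 1.59 to 2.27 times the negative-control probes in GC-SAL, 1.41 to 2.47 in GC-BuOE, 0.839 to 1.59 in FLT-SAL and 0.925 to 1.36 in FLT-BuOE. Of the 6 flight values, 5 were at or below 1.5 times these probes, against 1 of the 6 ground values, so the differences of Nfil3 in CA are set against values near background.

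Over both treatments, 6 flight against 6 ground mice in CA, Nr1d1 rose by 0.75 (SE 0.150, adjusted p = 0.00529), Dbp rose by 0.83 (SE 0.155, adjusted p = 0.00266) and Nfil3 fell by 0.84 (SE 0.190, adjusted p = 0.0193), to flight values near background. These were 3 of the 25 genes called in that contrast, which are 0.158% of all genes. The Nfil3 call was lost without FLT-SAL mouse 1 or 3 or GC-BuOE mouse 2 or 3. Among the 10, only Nr1d1 had no overlap between the 6 flight and 6 ground mice in CA, against 0.672% of all genes. In DG, FCT and CT the same contrast called 0 of the 10 genes, against 0.120%, 0.127% and 0.108% of all genes. At an unadjusted p below 0.05 there were 4 of the 10 in DG (9.36% of all genes), 1 in FCT (7.31%) and 3 in CT (6.70%). The smallest p-values belonged to Nr1d1, Per1 and Dbp in DG and to Dbp in FCT and CT, and edgeR did not call these either. Whether the flight effect in saline mice differed among regions was tested with the mouse held fixed, and 0 of the 10 genes were called, against 0.127% of all genes. At an unadjusted p below 0.05 there were 3, Bhlhe40 (adjusted p = 0.561), Per1 (adjusted p = 0.791) and Nr1d1, against 4.64% of all genes. No flight effect in saline mice was thus shown to be particular to CA. The flight effect in BuOE mice was not tested for a difference among regions.

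**Figure D3:**
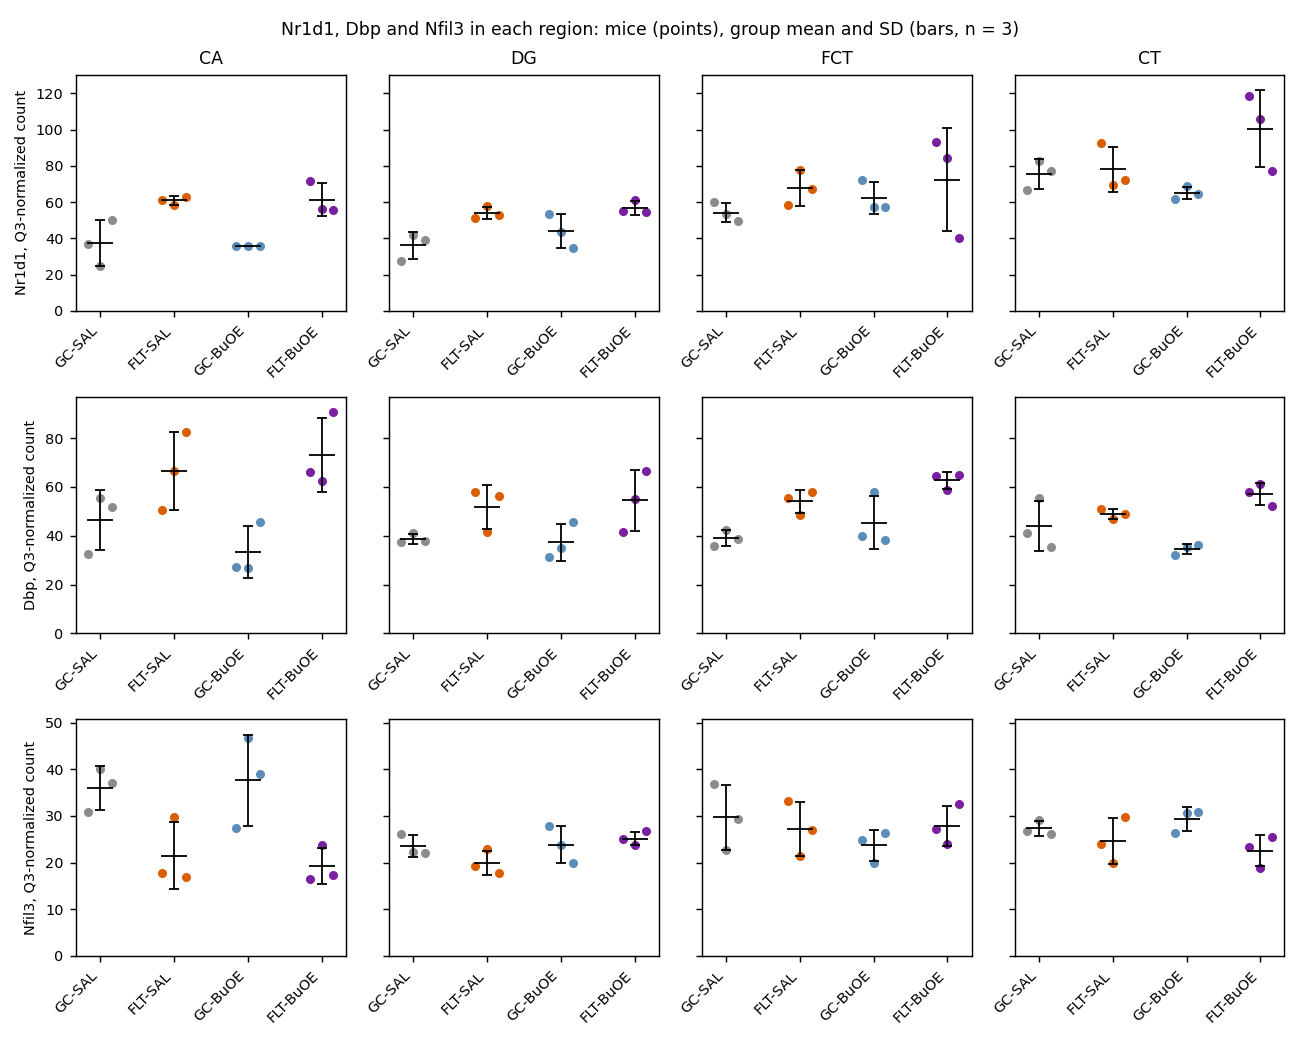
Q3-normalized counts of Nr1d1, Dbp and Nfil3 (rows, axes from 0) in CA, DG, FCT and CT (columns), each point 1 mouse and bars the group mean and SD (n = 3 mice). In CA the flight mice of each treatment lie above the ground mice of that treatment for Nr1d1 and below them for Nfil3, and in FCT 1 FLT-BuOE mouse has an Nr1d1 value of 40.0 beside 92.9 and 84.5.

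For Per1, Per3 and Bhlhe40 the order of the group means varied between regions, and no limma test of them within a region passed. In FCT, Per1 was 102, 95.7 and 84.8 in GC-SAL, 72.0, 72.2 and 75.1 in FLT-SAL, 79.0, 84.5 and 88.2 in GC-BuOE and 110.1, 114 and 104 in FLT-BuOE. Flight mice thus had less Per1 than ground mice under saline (log2 difference −0.36, SE 0.150, adjusted p = 0.787) and more under BuOE (0.38, SE 0.150, adjusted p = 0.587), and the groups did not overlap. The difference between these effects was 0.74 (SE 0.211), with an adjusted p of 0.900 in limma. In DG, Per1 was higher in flight in both treatments, by 0.40 and 0.47 (adjusted p = 0.538 and 0.378). FLT-BuOE exceeded FLT-SAL in FCT by 0.57 (adjusted p = 0.152), below the fold threshold too.

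Per3 in FCT was 47.4, 60.4 and 50.6 in GC-SAL and 28.1, 31.1 and 23.7 in GC-BuOE. The log2 difference was −0.91 (SE 0.192, adjusted p = 0.115), the largest of BuOE on the ground among the 10 genes, and edgeR called it (adjusted p = 0.0410). The flight effect on Per3 in FCT differed between treatments by 0.82 (SE 0.272), with an adjusted p of 0.900. In DG the GC-BuOE against GC-SAL contrast gave −0.53 (adjusted p = 0.755). Bhlhe40 in CA was 50.8, 57.2 and 68.2 in GC-SAL, 30.6, 35.9 and 49.3 in FLT-SAL, 59.0, 60.0 and 55.2 in GC-BuOE and 59.3, 56.3 and 66.1 in FLT-BuOE. FLT-SAL was the low group, with a difference from GC-SAL of −0.61 (SE 0.199, adjusted p = 0.290) and with FLT-BuOE above it by 0.66 (SE 0.199, adjusted p = 0.545). The flight effects on Bhlhe40 in CA differed between treatments by 0.67 (SE 0.281), with an adjusted p of 0.908. Between FLT-BuOE and FLT-SAL, limma called 0 of the 10 genes in CA (0.00634% of all genes), DG (0.00%), FCT (0.0317%) and CT (0.0697%), where DESeq2 called 1 (Per1 in FCT) and edgeR 0. At an unadjusted p below 0.05 there were 2 of the 10 in CA (4.96% of all genes), 0 in DG (6.20%), 2 in CT (5.73%) and 2 in FCT (7.65%). Between GC-BuOE and GC-SAL, limma called 0 in CA (0.00% of all genes), DG (0.00%), FCT (0.00634%) and CT (0.00%), where edgeR called 1 (Per3 in FCT) and DESeq2 0. At an unadjusted p below 0.05 there were 2 of the 10 in CA (5.60%), 1 in DG (5.21%), 0 in CT (3.78%) and 2 in FCT (5.63%).

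To set the E-box arm against Arntl, Cry1 and Nfil3 in 1 value per mouse, the mean log2 level of the 3 was subtracted from that of the 7. Over the 4 regions this difference was 0.50, 0.78 and 0.76 in the GC-SAL mice, 0.92, 0.87 and 0.98 in FLT-SAL, 0.71, 0.56 and 0.70 in GC-BuOE and 1.06, 1.29 and 0.94 in FLT-BuOE. All 6 flight mice lay above all 6 ground mice. In single regions this held in CA only, and in DG, FCT and CT flight and ground mice overlapped. There FLT-BuOE mouse 3 was at 0.71, 0.70 and 1.13, beside 0.83, 1.00 and 0.84 in GC-SAL mouse 2. The group means were 0.681 ± 0.160 in GC-SAL, 0.923 ± 0.0552 in FLT-SAL, 0.657 ± 0.0859 in GC-BuOE and 1.10 ± 0.174 in FLT-BuOE (SD, n = 3). No test was run on this score, whose genes were chosen together, and its direction rests mainly on Nr1d1, Dbp and Nfil3.

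By region, the flight mice exceeded the ground mice in this difference most in CA, by 0.56 under saline and 0.91 under BuOE. All 6 of them lay above all 6 ground mice there. The subtracted genes were faint in CA: Nfil3 was above 1.5 times the negative-control probes in 6 of 12 AOIs, and Arntl and Cry1 in 9 each. Of the 6 flight values of Nfil3 in CA, 5 were at or below that mark, so part of this gap rests on values near background. In DG the gaps were 0.37 and 0.10, in FCT 0.017 and 0.24, and in CT 0.023 and 0.51. FLT-SAL thus lay close to GC-SAL in both cortical regions. In CT the FLT-BuOE mice, at 1.13 to 1.29, lay above the GC-BuOE mice, at 0.53 to 0.86.

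**Figure D4:**
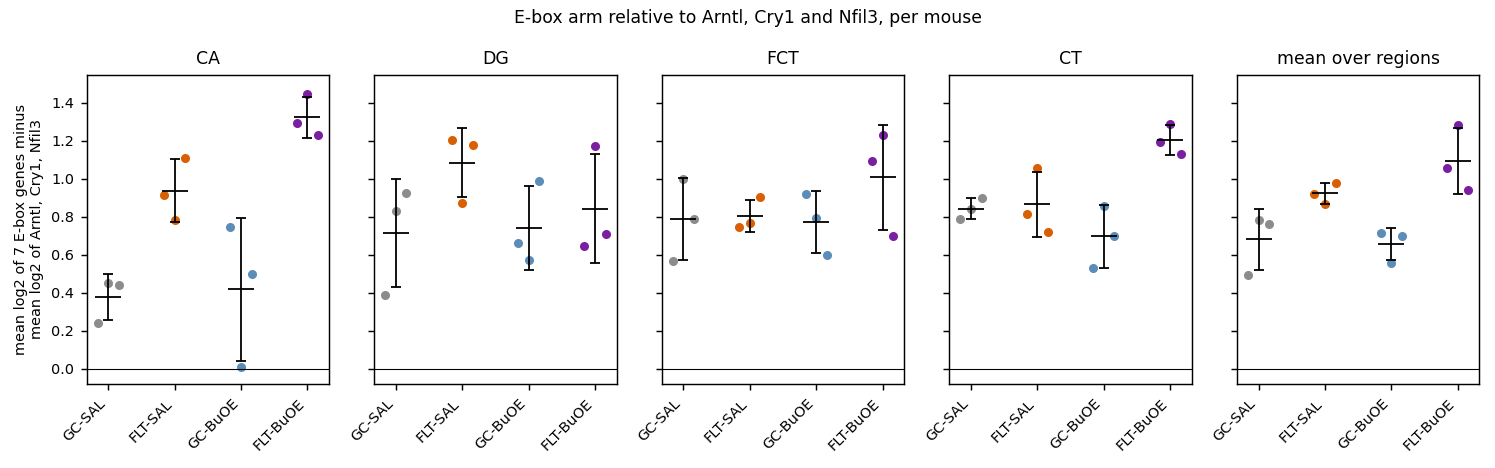
Mean log2 level of the 7 E-box genes minus that of Arntl, Cry1 and Nfil3 (vertical axis, log2 units) in each region and over the 4 regions, each point 1 mouse and bars the group mean and SD (n = 3 mice). In CA and over the regions the 6 flight mice lie above the 6 ground mice, and in FCT the groups overlap.

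Across the 12 mice, Arntl and Nr1d1 ran opposite to each other. Pearson's r of the log2 means was −0.756 (permutation p = 0.00514, adjusted p = 0.0463 over the 9 relations of Arntl with the other genes), and Spearman's rho was −0.671 (permutation p = 0.0207, adjusted p = 0.0930). Without FLT-BuOE mice 1 and 2, the farthest from the median of Arntl, r was −0.458 (permutation p = 0.180, n = 10), so the relation rests on those mice. For Nr1d2 r was −0.695 (adjusted p = 0.0579), rho −0.622, and r without the same mice −0.455. Nfil3 ran with Arntl, with r = 0.647 (adjusted p = 0.0795), rho = 0.699 (adjusted p = 0.0930) and r = 0.470 without them. The remaining relations were weaker, from −0.315 for Per1 to 0.475 for Per2, with −0.281 for Dbp and 0.200 for Cry1. The permutations moved mice freely between groups, so their p-values do not separate group differences from variation within groups. Each group holds 3 mice, too few for a value of its own. Taken as deviations from the group means, r was −0.825 for Nr1d1, −0.696 for Nr1d2 and 0.923 for Nfil3, given as a description since the 12 deviations share 4 group means.

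**Figure D5:**
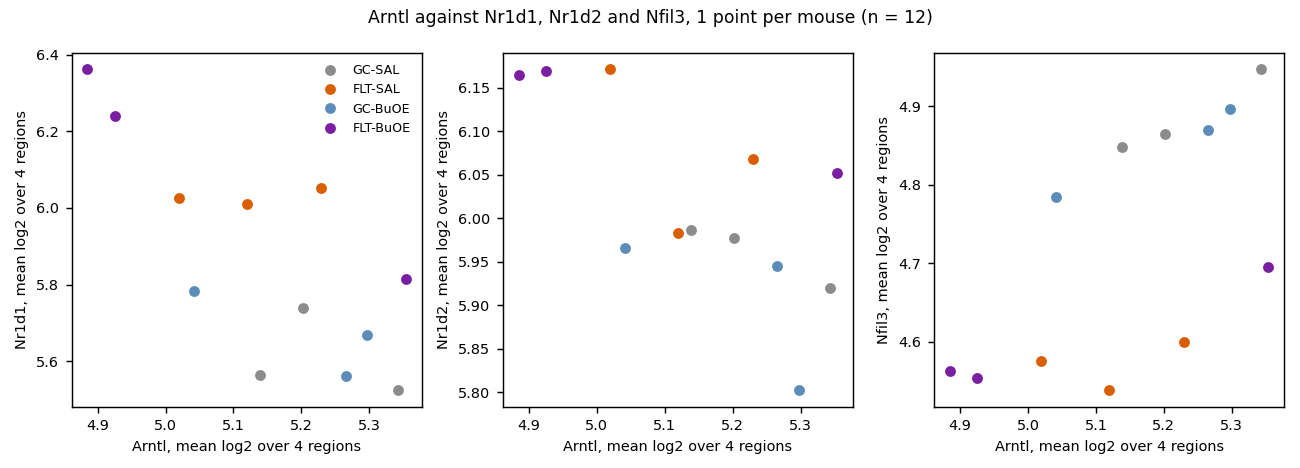
Mean log2 level over the 4 regions of Nr1d1, Nr1d2 and Nfil3 (vertical axes) against that of Arntl (horizontal axis) in the 12 mice, coloured by group. Nr1d1 and Nr1d2 fall and Nfil3 rises with Arntl (r = −0.756, −0.695 and 0.647), and FLT-BuOE mice 1 and 2 form the low Arntl end.

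Levels were also compared between regions, with the mouse held fixed and all groups together. Of 60 comparisons (10 genes, 6 pairs of regions), 17 were called at an adjusted p below 0.05. CA differed from DG in 3 of the 10 genes (23.7% of all genes), from FCT in 4 (17.6%) and from CT in 3 (20.8%), DG differed from FCT in 3 (17.9%) and from CT in 4 (21.0%), and FCT and CT differed in 0 (0.982%). Such differences were thus common over all genes, except between FCT and CT, and these counts are not read as particular to the clock genes. Nr1d1 had a median of 53.0 in CA (24.8 to 71.8), 52.0 in DG (27.6 to 61.3), 59.2 in FCT (40.0 to 92.9) and 74.7 in CT (61.8 to 119). Its order was CT, FCT, then CA and DG: CA lay below CT (log2 difference −0.73, adjusted p = 5.84e-10) and below FCT (−0.41, adjusted p = 5.64e-04), CA and DG did not differ beyond their spread (0.0050), and FCT and CT did not pass the test (−0.32, adjusted p = 0.0982).

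Per1 was likewise higher in cortex, with medians of 86.5 in FCT and 81.4 in CT over 69.0 in CA and 66.3 in DG, and all 4 differences between cortex and hippocampus were called. Nr1d2 was lower in CA (median 53.5) than in FCT (73.6) and CT (69.4). Per3 stood out in DG, with a median of 60.9 (46.3 to 73.5) against 42.4 to 45.4 elsewhere, and DG exceeded CA, FCT and CT by 0.45, 0.52 and 0.49 (adjusted p = 1.99e-04, 1.06e-05 and 3.18e-05). Bhlhe40 was highest in CA (median 56.8), above DG by 0.67 (adjusted p = 1.74e-06) and above FCT by 0.43, and CT lay above DG. Per2 was higher in CA than in DG by 0.33 (adjusted p = 0.00402). Dbp, Arntl, Cry1 and Nfil3 gave no call between regions, with medians of 41.6 to 53.6, 31.2 to 38.7, 28.5 to 32.8 and 23.3 to 28.6. Background differed by region: the median of the negative-control probes was 18.86 for CA and 11.2 for DG. As multiples of these probes, some orders changed. Median Per2 was 3.017 for CA but 4.152 for DG, and Nr1d1 2.789 and 4.607. Bhlhe40 was 3.11 for CA but 3.245 for CT, and Per1 5.73 for DG but 5.291 for CT. Per3 was still highest in DG (5.05) and Nr1d2 lowest in CA (3.033). The calls between regions are thus calls on Q3 levels.

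Within regions, the E-box genes did not vary as a block. Over the 48 AOIs, after the mean of each region was removed, the correlation of a gene with the mean of the other 6 E-box genes was 0.599 for Dbp, 0.410 for Nr1d2, 0.358 for Per1 and 0.297 for Nr1d1, and near 0 for Per3 (0.047), Per2 (0.0053) and Bhlhe40 (−0.014). Nfil3 ran against the mean of the 7 with −0.482 and Arntl with −0.226, while Cry1 was at −0.073. AOIs share mice, slides and depth, so these values are descriptions. Among the genes most like the mean of the E-box arm by the same measure, of 15739 eligible genes, were Stx3 (0.647), Actr1b (0.628), Cirbp (0.616), Btbd3 (0.599), Ccdc136 (0.598), Zkscan16 (0.598) and Tspoap1 (0.591).

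Other genes of the clock were looked up from a list of 23, of which 21 had rows in the tables. With limma, 0 passed the test in either flight contrast, against 0.843% of all genes in saline and 0.336% in BuOE mice. At an unadjusted p below 0.05 there were 3 of the 21 in each, against 8.79% of all genes in saline and 9.31% in BuOE mice. In FLT-BuOE against FLT-SAL and in GC-BuOE against GC-SAL, 0 passed, against 0.120% and 0.00% of all genes. There, 1 and 0 were at an unadjusted p below 0.05, against 7.90% and 4.41% of all genes. The D-box activators Hlf and Tef, relatives of Dbp, lay on the same side as Dbp: Hlf differed by 0.39 in saline (adjusted p = 0.0922) and by 0.21 in BuOE mice (adjusted p = 0.573), and Tef by 0.26 and 0.27 (adjusted p = 0.414 and 0.396). Over both treatments Hlf rose by 0.30 (SE 0.0805, adjusted p = 0.0343) and was the only one of the 21 called, against 1.43% of all genes, while Tef gave 0.26 (adjusted p = 0.0633). Clock, which encodes the partner of BMAL1, differed by −0.062 and 0.0028. Npas2, which can stand in for Clock, gave −0.17 over both treatments (adjusted p = 0.354). Nampt and Wee1, which clock factors regulate, reached only an unadjusted p below 0.05, Nampt with 0.25 in saline and Wee1 with −0.38 in BuOE mice, as did Usp2, a deubiquitinase gene, with 0.23 in BuOE mice. The median of the 21 was 0.066 in saline and −0.025 in BuOE mice, beside 0.011 and −0.020 over all genes.

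Members of other gene lists were called in the same flight contrasts, and their part in the clock gene differences was not tested. Over all genes, limma called 0.843% in saline and 0.336% in BuOE mice. Of 6 temperature-responsive genes, the cold-inducible Cirbp and Rbm3 rose in both, Cirbp by 0.66 and 0.71 and Rbm3 by 0.72 and 0.62. The heat shock gene Hsph1 fell in both, by 0.38 and 0.59, and Hspa8 fell in BuOE mice, by 0.55. The list medians were −0.034 and −0.28. Of 13 immediate early genes, which report recent neuronal activity, 2 fell in saline mice (Arc and Npas4) and 1 in BuOE mice (Arc), with list medians of −0.11 and 0.010. Arc differed by −1.18 and −0.66, and it was higher in FLT-BuOE than in FLT-SAL by 0.57. Of 12 glucocorticoid-responsive genes, Sgk1 and Ddit4 rose in saline mice, by 0.82 and 0.48, and 0 were called in BuOE mice, with list medians of 0.24 and −0.063.

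Markers of other cell types also differed between groups. Over all genes, limma called 0.843% in the saline and 0.336% in the BuOE flight contrast, with 8.79% and 9.31% at an unadjusted p below 0.05. Of 6 oligodendrocyte markers, 3 rose in saline mice (Mbp, Mobp and Cnp), with a median of 0.37 and a summed level of 844 to 1139 in FLT-SAL against 557 to 709 in the mice of the other groups. In BuOE mice limma called 0 of the 6, with 4 above 0, 2 at an unadjusted p below 0.05 and a median of 0.092. Of 4 interneuron markers, Gad1 rose in saline mice by 0.37 (adjusted p = 0.0480 in limma), all 4 were above 0 and the median was 0.35. Their summed level was 201 to 242 in FLT-SAL and 162 to 205 in GC-SAL, and 162 to 192 in FLT-BuOE and 192 to 199 in GC-BuOE, where the median was −0.11 and 0 were called. Of 5 cortical projection neuron markers, 0 were called in either flight contrast. In BuOE mice all 5 were above 0, 3 were at an unadjusted p below 0.05 and the median was 0.31, with a summed level of 241 to 298 in FLT-BuOE against 214 to 235 in GC-BuOE, while the saline median was 0.025. No call was made in either flight contrast for 5 astrocyte, 4 microglial, 2 endothelial, 3 dentate granule cell, 4 CA1 pyramidal, 3 meningeal or 1 choroid plexus marker, of which 1 granule cell and 1 CA1 marker in saline and 1 CA1 marker in BuOE mice were at an unadjusted p below 0.05.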

How the data were processed

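GeoMx digital spatial profiling was performed on 48 AOIs from 12 mice, 4 regions each. The authors processed reads with the GeoMx NGS Pipeline (version 2.3.4 in the submitters' processing notes) and deposited the deduplicated count of each of 20175 probes per AOI. They also deposited Q3-normalized signal for 15782 genes, 1 table per region. Tables of the authors' own comparisons (fold changes and p-values) were not used. No genome build enters the counts.

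The 10 genes and all gene lists were chosen with earlier results of these data known. The main test was limma 3.58.1 in R 4.3.3 on log2(Q3 + 1), with empirical Bayes moderation and a mean-variance trend, on the mean of 4 regions per mouse (4 groups, 8 residual degrees of freedom) or within each region. Benjamini-Hochberg adjustment covered all 15782 genes. Calls needed an adjusted p below 0.05, and within regions also a change of more than 1.5-fold. Fold changes on this scale understate changes near background. Region tests held the mouse as a fixed block. Correlations used 100000 permutations and are two-sided (scipy 1.17.1). Dividing by the step of each AOI gave whole counts (within 0.02) for 99.98% of values and 15779 genes, on which edgeR 4.0.16 and DESeq2 1.42.0 were run as alternatives. Other alternatives were a pseudocount of 5, a filter at 1.5 times the negative-control probes, TMM or negative-control scaling, fits on 2 groups only, a replicate block, the mouse as a random block over 48 AOIs, and leaving out each mouse or region. Tests were tried on simulated counts before use. Named genes were all 10 clock genes, the other clock genes called or with the smallest p-values, the 8 genes most like the E-box arm, and examples from the lists. Gene positions are from GENCODE M21 (GRCm38) and promoter sequences from RefSeq (GRCm38.p6). A gene in the list of those most like the E-box arm is not reported here.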

Additional observations from a re-analysis of the deposited data

How the results depend on the processing

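The 39 single-gene results followed here were chosen for a call or a small p-value in the main fit, and none reversed its direction under any alternative. Genes with small differences were not followed in this way. Over all results, 1049 of 1136 alternative values were rated the same as the main value. Counts of called genes and group means have no side of a threshold and were rated by how close they stayed. The number of the 10 clock genes called in FLT-SAL against GC-SAL over the regions, 1 in the report, was 0 with TMM scaling, negative-control scaling, edgeR, DESeq2, or without CA or DG, was 2 with the replicate block, with the mouse as a random block over 48 AOIs or without CT, and was 0 to 1 when a mouse was left out. In FLT-BuOE against GC-BuOE it was 2 and became 1 with negative-control scaling, edgeR or DESeq2, or without CA, DG or CT, and it was 1 to 2 when a mouse was left out. Within regions, the BuOE flight count of 1 became 0 with DESeq2 and 0 to 1 when a mouse was left out, and the saline count of 0 became 0 to 1. In FLT-BuOE against FLT-SAL the count of 0 became 1 without DG (Bhlhe40), and within regions 2 with negative-control scaling and 1 with DESeq2. In GC-BuOE against GC-SAL within regions, it became 1 in the fit on 2 groups only and with edgeR, and 0 to 1 when a mouse was left out. The E-box difference of FLT-SAL was 0.837 with a pseudocount of 5, and the cause of these changes was not tested.

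Same-numbered mice of different groups deviated together at most weakly (correlations −0.075 to 0.174, median 0.064, against a median of −0.028 for other numbers). The labels give no pairing of the mice, and these values do not settle whether the numbers pair them. The replicate block gave 326 called genes in FLT-SAL against GC-SAL in place of 133, and 110 in place of 53 in FLT-BuOE against GC-BuOE, with Dbp then called in saline mice as well (adjusted p = 0.0145). Over all genes, edgeR and DESeq2 called 82 and 79 genes in the saline flight contrast, 32 and 29 in the BuOE flight contrast and 35 and 21, against 19, in FLT-BuOE against FLT-SAL. Negative-control scaling left 17 and 23 genes in the flight contrasts, and leaving out a mouse gave 17 (without FLT-SAL mouse 3) to 178 and 26 (without GC-BuOE mouse 3) to 61. Counts of 10 to 60 per AOI limit what could be seen for Nfil3.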
